A study of Mus musculus with 24 samples.

Results

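Cadherins, protocadherins, integrins and claudins are the families described here, and every gene of the 6 deposited tables whose symbol starts with Cdh, Pcdh, Itga, Itgb or Cldn followed by a letter or digit was taken. These were 21 of the 3668 genes named in the tables: 3 cadherins (Cdh2, Cdh13 and Cdh17), 10 protocadherins (Pcdh7, Pcdh9, Pcdh10, Pcdh18, Pcdha1, Pcdha4, Pcdhga7, Pcdhga9, Pcdhga10 and Pcdhgb1), 6 integrins (Itga6, Itga8, Itga9, Itga11, Itgav and Itgb1), 1 claudin (Cldn9) and Itgb1bp1. The last encodes a protein that binds the tail of integrin beta 1 and is not itself an integrin.

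The cells were mouse embryonic fibroblasts (MEFs) from animals of a mixed strain (C57BL/6; 129Sv/J), grown from embryos of day 13.5 and collected 3 days after infection with a retrovirus that carries the CRE recombinase and then excises itself. E4F1 is a zinc finger transcription factor. The Ha-RasV12 knockout group was p53-/- and E4F1-/- and had been transformed with a retrovirus encoding the activated oncogene Ha-RasV12, and its control group was p53-/- and E4F1 +/- with the same oncogene. The p53-/- knockout group was p53-/- and E4F1-/- without the oncogene, and its control group was p53-/- and E4F1 +/-. All 4 groups therefore lacked p53, all were exposed to CRE, and the controls were heterozygous for E4F1 rather than wild type. Each group held 3 biological replicates named A, B and C, and each replicate was measured on 2 arrays, labelled with Cy3 on one and with Cy5 on the other, which gave 24 samples on 12 two-colour arrays with knockout and control of a replicate on the same array.

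Cadherins are calcium-dependent receptors that join neighbouring cells, the classical ones through catenins to the actin cytoskeleton. Protocadherins are their largest branch, and the alpha and gamma gene clusters each splice many variable first exons to a constant end, which lets neurons and other cells display different combinations. Integrins are pairs of an alpha and a beta subunit that bind matrix proteins such as laminin, collagen and fibronectin and couple them to actin through talin. Claudins form the tight junction seal of epithelia. Fibroblasts rely mainly on integrins and N-cadherin, and loss or exchange of adhesion receptors is a well-known feature of Ras-transformed fibroblasts.

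Promoters are shown first for Itga11, Pcdh7 and Pcdh18, which passed the test between the control groups, and for Pcdh10, whose window alone among those searched for 10 members holds an E4F1 core site. Each window runs from 250 bases before to 50 bases after the start of the gene in RefSeq (build GRCm38.p6), 5′ to 3′ on the strand of the gene. The window of Itga11 is chr9:62677605-62677904 on the plus strand, that of Pcdh7 is chr5:57717831-57718130 on the plus strand, that of Pcdh18 is chr3:49757267-49757566 on the minus strand, and that of Pcdh10 is chr3:45378148-45378447 on the plus strand. Capitals mark a match to TGACGT, the core of the site E4F1 was first described to bind, or to CAGGTG, the E-box of the Snail and Zeb repressors of cadherins, both searched on both strands (ACGTCA and CACCTG in reverse).
Itga11: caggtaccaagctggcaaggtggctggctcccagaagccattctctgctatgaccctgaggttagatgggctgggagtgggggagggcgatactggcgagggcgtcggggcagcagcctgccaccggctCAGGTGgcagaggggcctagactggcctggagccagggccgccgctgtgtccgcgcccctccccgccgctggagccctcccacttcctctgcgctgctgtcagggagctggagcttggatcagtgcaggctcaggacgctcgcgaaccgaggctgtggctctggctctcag
Pcdh7: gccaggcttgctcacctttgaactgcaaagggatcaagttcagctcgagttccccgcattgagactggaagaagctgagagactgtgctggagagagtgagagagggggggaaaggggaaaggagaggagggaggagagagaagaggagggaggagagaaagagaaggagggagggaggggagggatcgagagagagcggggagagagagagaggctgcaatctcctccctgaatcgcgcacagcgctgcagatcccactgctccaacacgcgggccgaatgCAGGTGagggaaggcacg
Pcdh18: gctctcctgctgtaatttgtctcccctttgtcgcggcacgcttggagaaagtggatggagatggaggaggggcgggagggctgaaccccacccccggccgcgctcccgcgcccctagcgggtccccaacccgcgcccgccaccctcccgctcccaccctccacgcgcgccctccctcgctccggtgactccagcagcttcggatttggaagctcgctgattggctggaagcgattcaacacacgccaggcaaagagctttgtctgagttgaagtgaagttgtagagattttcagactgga
Pcdh10: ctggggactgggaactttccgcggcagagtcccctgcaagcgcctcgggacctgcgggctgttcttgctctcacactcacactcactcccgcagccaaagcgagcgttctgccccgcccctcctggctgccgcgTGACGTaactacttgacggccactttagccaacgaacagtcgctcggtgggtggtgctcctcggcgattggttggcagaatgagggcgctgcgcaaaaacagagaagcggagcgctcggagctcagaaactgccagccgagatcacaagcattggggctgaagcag
CAGGTG lies 121 bases upstream of the start in Itga11 and within the first bases of the transcript in Pcdh7, and Pcdh18 holds neither run of letters. TGACGT was found in 1 of the 11 promoter windows searched, which belong to 10 members, in Pcdh10, 116 bases upstream of the start, against 7.51% of all 32851 mouse promoters in the table. CAGGTG was found in 3 of these 11 windows, against 20.2% of all promoters.

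Probe signals were the authors' normalized intensities, given here on the log2 scale and averaged over both dye orientations of a replicate. The table holds 132488 probes for 44170 transcripts, usually 3 per transcript, and median linear signals per sample were 69.2 to 100.0 intensity units. The 95th percentile of 5000 control probes, taken as background, lay between 6.32 and 6.82 log2 units. The number of arrays limits the precision. E4f1 checks the labels: its level was 6.74, 6.08 and 6.09 in Ha-RasV12 knockout replicates A, B and C, against 8.70, 8.23 and 7.95 in Ha-RasV12 controls (log2 difference -1.99, SE 0.16, limma adjusted p = 0.000438), and it was above background in 1 of 3 Ha-RasV12 knockouts and in 3 of 3 controls. In p53-/- cells E4f1 was not above background in any knockout replicate and was at least 2.17-fold lower than in controls, with differences of -1.38, -0.92 and -1.53 that did not pass (adjusted p = 0.0759). Such a bound sets the mean of the brighter group against the mean of the background level, or of the probe's own level where that was higher, in the dim group. The labels and files do not say if the E4f1 probe lies inside the segment that CRE removes.

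One sample group has a replicate that stands apart. Over 45531 probes above background in all 12 averages, Ha-RasV12 control replicate A correlated with replicates B and C at r = 0.90 each, while B and C correlated at 0.99. The same correlations were 0.94 to 0.96 among Ha-RasV12 knockouts and 0.98 to 0.99 within both p53-/- groups. Of 10 epithelial markers listed, 3 were named in the tables (Epcam, Krt7 and Krt19). Their summed linear signal was 1766 to 2971 in Ha-RasV12 knockouts, against 18982, 3130 and 2682 in Ha-RasV12 controls A, B and C, and 1827 to 1909 in p53-/- knockouts, against 1324 to 1716 in p53-/- controls. Most of the sum in Ha-RasV12 control A was Krt19, and Epcam was not above background in any p53-/- average. Of 8 fibroblast markers 4 were named (Col1a1, Pdgfra, Dcn and Lum), all above background in all 12 averages. Their sum was 6854 to 15932 in Ha-RasV12 knockouts, against 8729, 1888 and 1770.5 in Ha-RasV12 controls A, B and C, and 13715 to 23445 in p53-/- knockouts, against 9857 to 15183 in p53-/- controls. After E4F1 loss in Ha-RasV12 cells Epcam, Krt7 and the matrix gene Dcn rose (0.86, 1.53 and 2.88, adjusted p = 0.024, 0.013 and 0.0133), Krt7 being above background in 1 of 3 Ha-RasV12 controls. Krt19 differed by -4.50, -0.28 and -0.64 in replicates A, B and C (mean -1.81, adjusted p = 0.225), and by -0.46 without A. Without replicate A, 3 of the 4 fibroblast markers rose, against 1 with it. The endothelial, muscle, blood and neural lists had 1, 2, 1 and 2 named genes, too few to describe those cell types. In bulk RNA, fewer cells of a type and less RNA per cell cannot be told apart. What the markers contribute to the values below was not tested. Of the Ha-RasV12 knockout differences and control differences given as values, those that lost or gained a call or moved by over 1.5 times without replicate A are also given without it.

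In the tables, which carry the gene names, all 21 members are listed for Ha-RasV12 cells in the authors' deposited SAM table named for 5%, which holds 10.7% of transcripts. Membership was therefore set by the Ha-RasV12 comparison, and the values of that comparison are a description. The authors' deposited limma table for Ha-RasV12 cells, with 5.79% of transcripts, lists 7 members: Cdh17, Itga6, Itga8, Itgav, Pcdhga7, Pcdhga10 and Pcdhgb1. For p53-/- cells 3 members are listed, Cdh13, Itga6 and Itga11, in the authors' deposited limma table (0.675% of transcripts) and in the deposited SAM table named for 5% (1.35%). Itga6 is the one member in both limma tables. The members have 78 probes, of which 49 are listed. The brightest probe of the transcripts named in the tables stands for the gene below. It was above background in all 12 averages for 12 members and in some of them for 9.

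After loss of E4F1, the members differed little in p53-/- cells and more, but unevenly between replicates, in Ha-RasV12 cells. All 21 had been listed by the Ha-RasV12 comparison, so this contrast and the counts for Ha-RasV12 cells do not test the families. With both arrays of a replicate counted as 1 measurement, 0 of 21 members passed the limma adjusted threshold of 0.05 in Ha-RasV12 cells (2.89% of all transcripts did), and 16 had an unadjusted p below 0.05, 10 higher and 6 lower (15.5% of all transcripts). The median log2 difference of the 21 was 0.53, against -0.004 for all transcripts. For 2718 other named genes above background in all averages it was 0.44. In p53-/- cells 0 passed (0.0317% of all transcripts) and 1, Itga11, had an unadjusted p below 0.05 (2.73%). The median was -0.07, against -0.003 for all transcripts. This fit shares its spread between the backgrounds. Fitted with limma on p53-/- replicates alone, 4 members (Cdh13, Itga6, Itga11 and Pcdhga9) had an unadjusted p below 0.05. On Ha-RasV12 replicates alone 12 did, and 0 passed the adjusted threshold in either. The shares of all transcripts in these separate fits are not given here. Among the 18 members not listed for p53-/- cells, log2 differences there ran from -0.35 to 0.35. In the shared fit 0 of them had an unadjusted p below 0.05. Members with a listed p53-/- change were left out of these 18, which by itself favours small differences. The SD of the 3 replicate differences had a median over members of 0.67 in Ha-RasV12 cells and 0.30 in p53-/- cells.

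**Figure D1:**
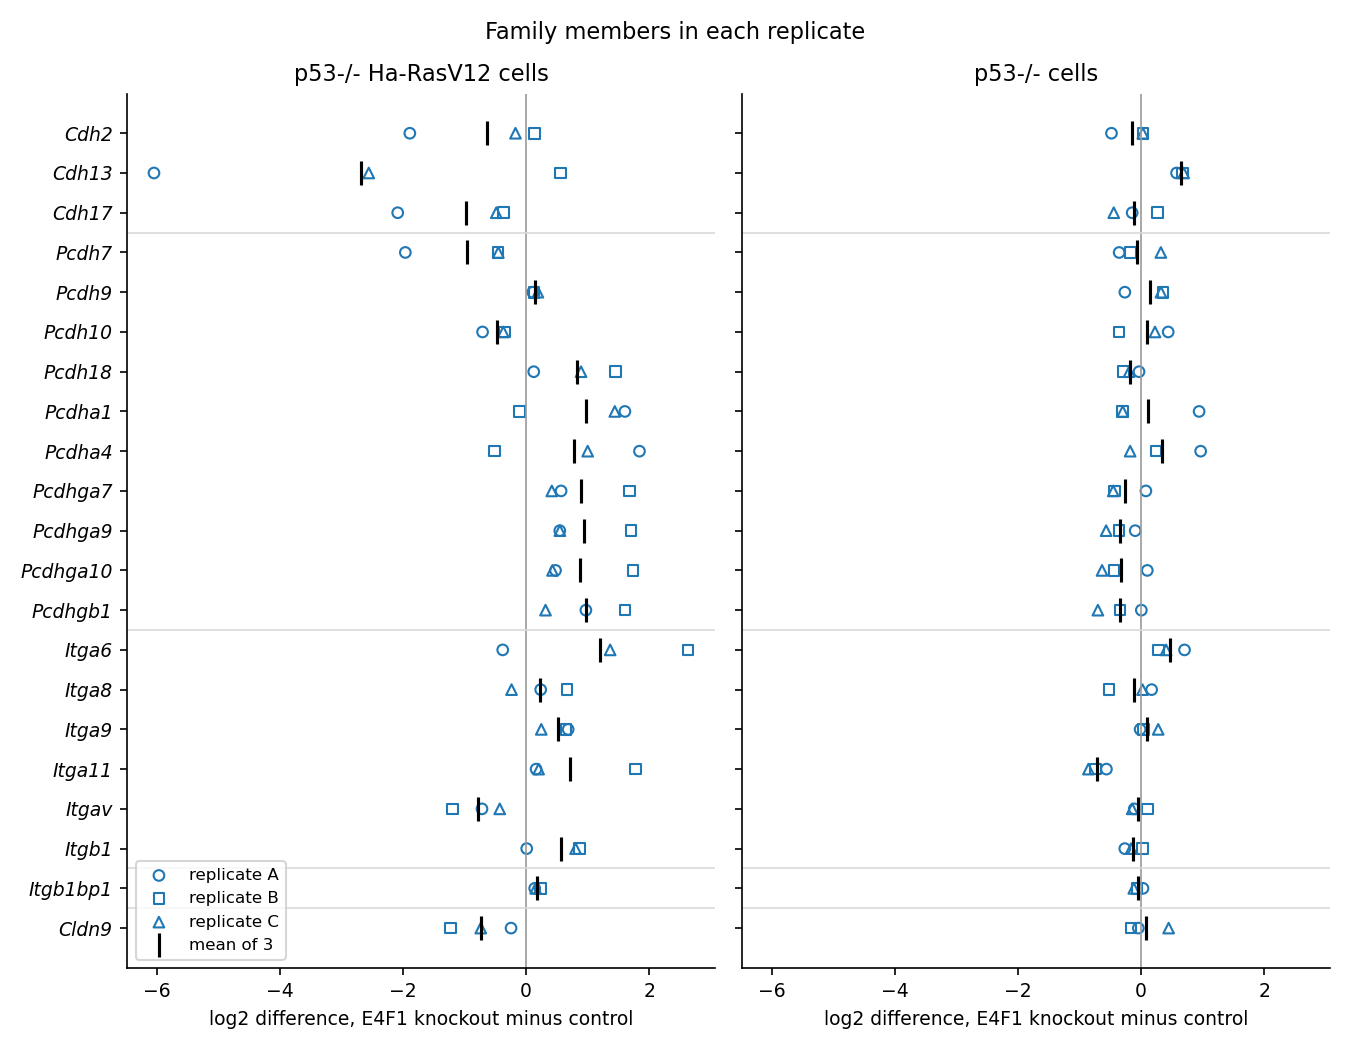
Log2 difference of normalized intensity, E4F1 knockout minus control (x axis), for each of the 21 members (rows, by family), in Ha-RasV12 cells on the left and p53-/- cells on the right; circles, squares and triangles are replicates A, B and C and bars their mean. Ha-RasV12 replicates spread widely, from -6.05 (Cdh13, replicate A) to 2.63 (Itga6, replicate B), and p53-/- replicates stay between -0.86 and 0.97.

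Among the cadherins, all 3 were lower in Ha-RasV12 knockout cells on average, mostly through replicate A. Cdh13 encodes T-cadherin, which lacks the usual tail and is held to the membrane by a lipid anchor. Its level was 8.36, 10.77 and 7.94 in Ha-RasV12 knockout replicates A, B and C, against 14.41, 10.21 and 10.49 in Ha-RasV12 controls. The replicate differences of -6.05, 0.56 and -2.56 do not share a sign, and their mean of -2.68 (SE 0.89) did not pass (limma adjusted p = 0.192). It was -0.998 without replicate A (adjusted p = 0.355) and -4.30 without replicate B (adjusted p = 0.00754). Among p53-/- replicates, Cdh13 was at 10.11, 8.26 and 8.90 in knockouts, against 9.53, 7.59 and 8.21 in controls, differences of 0.58, 0.67 and 0.69. The differences lie close together although the levels of the replicates do not. The authors' deposited limma table lists the gene at 0.65 (adjusted p = 0.0172), while the fit that shares its spread with Ha-RasV12 cells gives an SE of 0.89 for the same mean. Fitted on p53-/- replicates alone, the SE was 0.12 and the adjusted p = 0.179. All 3 probes of Cdh13 were lower in Ha-RasV12 knockouts (-2.68 to -2.15) and higher in p53-/- knockouts (0.36 to 0.65).

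Cdh2 encodes N-cadherin, the main classical cadherin of fibroblasts. Its level was 9.60, 10.10 and 9.66 in Ha-RasV12 knockouts, against 11.49, 9.96 and 9.84 in Ha-RasV12 controls. Control A is the one high value of the 6, and the difference of -0.64 (SE 0.33, adjusted p = 0.442) was -0.02 without replicate A. The p53-/- differences were -0.48, 0.03 and 0.03. Cdh17, liver-intestine cadherin, an epithelial gene, was at background in all Ha-RasV12 knockouts and above it in all Ha-RasV12 controls, at 8.12, 6.81 and 6.56. It was at least 1.60-fold lower in knockouts, again most in replicate A (differences -2.09, -0.37 and -0.48, adjusted p = 0.162, and 0.31 without replicate A). The authors' deposited limma table lists another Cdh17 probe at -0.67 (adjusted p = 0.0359), which was above background in 1 of 12 averages. Of 6 Cdh17 probes, 4 were lower in Ha-RasV12 knockouts. The 2 higher ones were at background in every average.

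**Figure D2:**
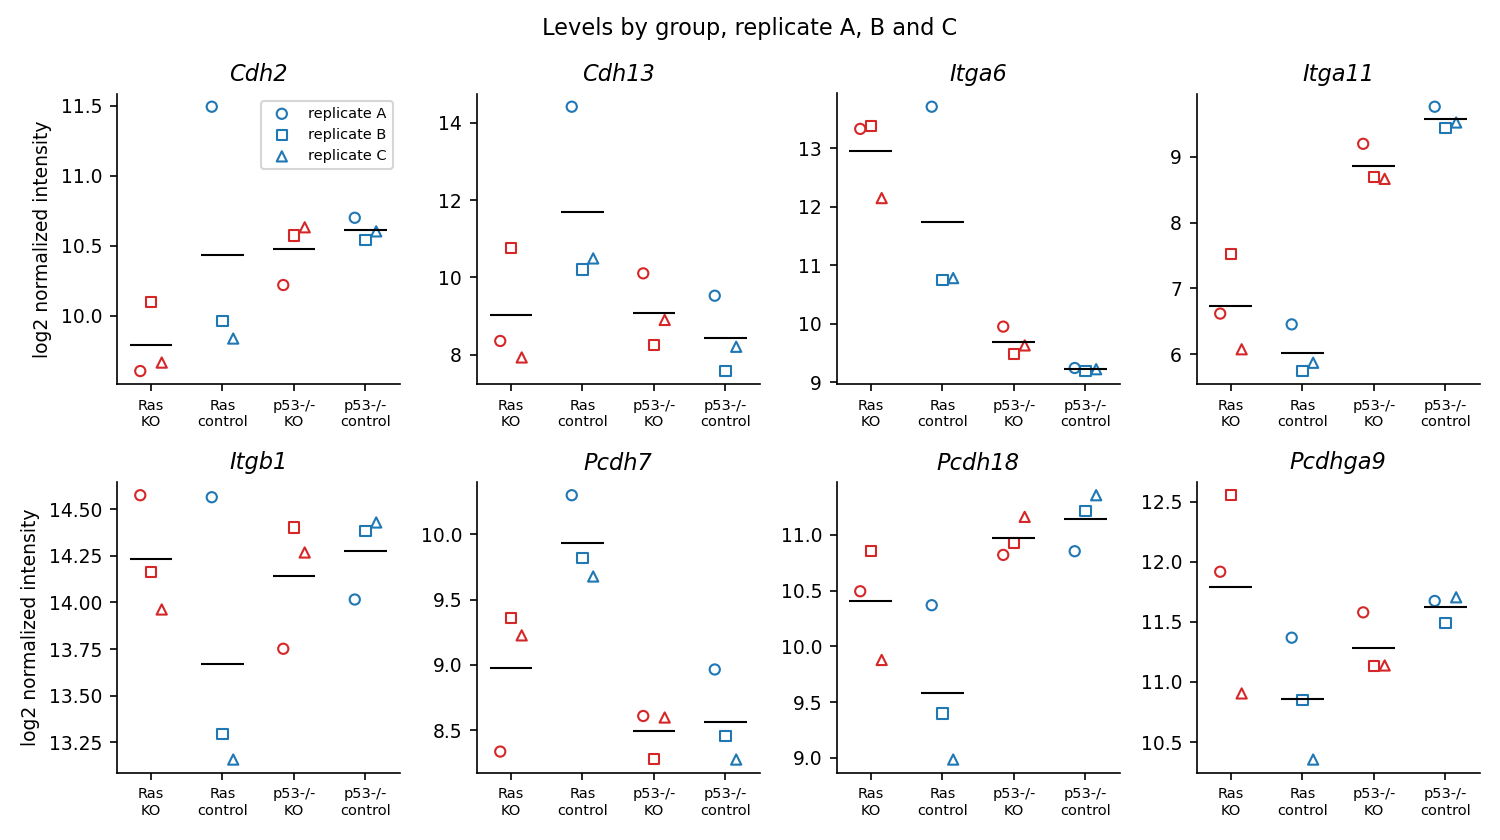
Level (log2 normalized intensity, y axis) of 8 members in Ha-RasV12 knockout, Ha-RasV12 control, p53-/- knockout and p53-/- control cells; circles, squares and triangles are replicates A, B and C, lines are means of 3. In all 8 the Ha-RasV12 control replicate A lies above controls B and C, though those of Itga11 are all at background. Among members not shown, control A was the lowest Ha-RasV12 control in Cldn9, Itgav, Pcdha4 and Pcdhgb1.

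Of the integrin alpha subunits, Itga6 pairs with beta 1 or beta 4 to bind laminin and is known as a receptor of epithelial and stem cells. Its level was 13.33, 13.38 and 12.15 in Ha-RasV12 knockouts, against 13.71, 10.74 and 10.78 in Ha-RasV12 controls. Knockout replicates B and C lay well above their controls (2.63 and 1.37), while in replicate A both were high (-0.38). The mean of 1.21 (SE 0.43) did not pass (adjusted p = 0.228). Without replicate A it was 2.00 and passed (adjusted p = 0.00224), and the difference between the backgrounds was then 1.53 (adjusted p = 0.0611). Itga6 in p53-/- cells was 9.95, 9.48 and 9.63 in knockouts, against 9.25, 9.19 and 9.23 in controls, so that all 3 knockouts lay above all 3 controls. The authors' deposited limma tables list Itga6 in both backgrounds, at 0.70 for p53-/- cells (adjusted p = 0.03) and at 1.11 and 0.81 for 2 probes in Ha-RasV12 cells (adjusted p = 0.0415 and 0.0483).

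Itga6 has 15 probes, 10 of them above background in all 12 averages and 2 in none. In Ha-RasV12 cells 13 of the 15 were higher in knockouts (-0.27 to 1.24 over all), and the 2 lower ones are the 2 at background. All 15 were higher in p53-/- knockouts (0.01 to 0.70). None passed the test in either background.

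**Figure D3:**
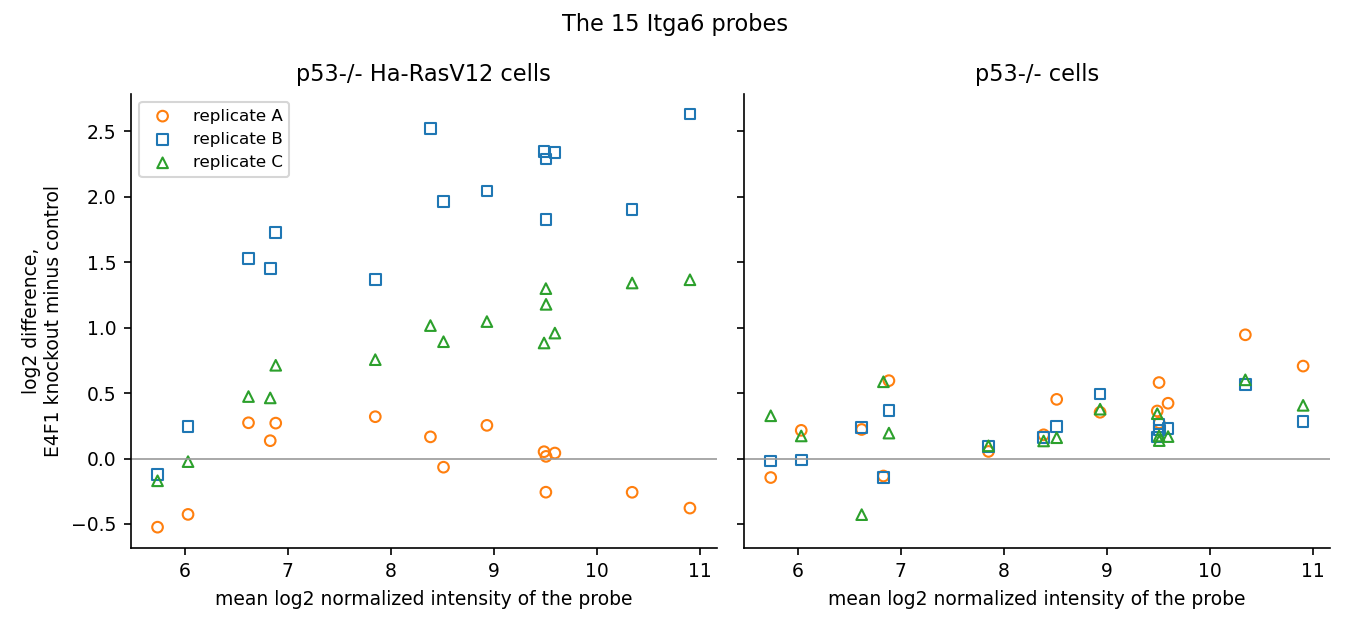
The 15 probes of Itga6, with the probe's mean log2 normalized intensity on the x axis and its log2 difference, knockout minus control, on the y axis, for replicates A (circles), B (squares) and C (triangles). In Ha-RasV12 cells the bright probes order as replicate B, then C, then A near 0, and the 2 dimmest probes lie near or below 0 in most replicates.

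Itga11 encodes a subunit that pairs with beta 1 as a fibroblast collagen receptor. Its level was 9.19, 8.70 and 8.66 in p53-/- knockouts, against 9.76, 9.43 and 9.52 in p53-/- controls. Every knockout lay below every control (differences -0.56, -0.74 and -0.86, mean -0.72, SE 0.28, adjusted p = 1.00), and the authors' deposited limma table lists it at -0.72 (adjusted p = 0.0115). In Ha-RasV12 cells the gene was above background in 1 of 3 knockouts, replicate B at 7.52, and in 0 of 3 controls, where it measured 6.46, 5.75 and 5.87. Knockout replicates A and C were thus at background as well, so that no fold is given (adjusted p = 0.29).

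Itgb1, the beta 1 subunit shared by most matrix-binding integrins, was among the brightest probes. It measured 14.58, 14.16 and 13.96 in Ha-RasV12 knockouts, against 14.56, 13.29 and 13.16 in Ha-RasV12 controls. Replicate A again had a high control (0.01), and B and C differed by 0.87 and 0.81. The mean of 0.56 (SE 0.19, adjusted p = 0.203) became 0.84 without replicate A and then passed (adjusted p = 0.0236). The p53-/- differences were -0.26, 0.02 and -0.16. All 3 Itgb1 probes were higher in Ha-RasV12 knockouts (0.13 to 0.57) and lower in p53-/- knockouts (-0.30 to -0.07).

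The named probes of the other alpha subunits lay near background. Itgav, Itga9 and Itga8 have 1 named transcript each. Any other transcript of these genes on the array would carry no name here, so these levels need not be those of the whole gene. Itgav, the alpha subunit of vitronectin and fibronectin receptors, was above background in 6 of 12 averages. It measured 4.96, 5.72 and 6.35 in Ha-RasV12 knockouts, against 5.68, 6.92 and 6.78 in Ha-RasV12 controls (adjusted p = 0.0564). Only 1 of 3 knockouts and 2 of 3 controls were above background, so that no fold is given. Its other probes, both at background in every average, gave 0.14 and -0.12. Itga9, a receptor for tenascin-C and related proteins, differed by 0.68, 0.65 and 0.25 in Ha-RasV12 cells (adjusted p = 0.142). It was above background in 2 of 3 knockouts and 0 of 3 controls there, so that no fold is given. The mean over the 3 probes of Itga9 passed (adjusted p = 0.0458), but none of these probes was above background in any Ha-RasV12 control. One of them was above background in 0 of 12 averages, so that no fold is given for the mean either. Itga8, which binds nephronectin, differed by 0.24, 0.67 and -0.24 at its brightest probe, which gives no fold above background. Another probe of Itga8, above background in 3 of 3 Ha-RasV12 knockouts and 0 of 3 controls, was at least 1.27-fold higher in Ha-RasV12 knockouts (adjusted p = 0.00421). One of Pcdhga10 also passed, at 1.09 (adjusted p = 0.0288), which makes these the 2 of 21 members with any probe past the threshold (3.79% of all transcripts). Itgb1bp1 measured 11.88 to 12.13 in Ha-RasV12 knockouts, against 11.73 to 11.92 in Ha-RasV12 controls (0.18, SE 0.14, adjusted p = 0.65), and its 2 dimmer probes went the other way (-0.34 and -0.69).

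The clustered gamma protocadherins were higher in all 3 Ha-RasV12 knockout replicates and closely alike. Pcdhga9 measured 11.92, 12.55 and 10.90 in Ha-RasV12 knockouts, against 11.37, 10.85 and 10.35 in Ha-RasV12 controls. Over Pcdhga7, Pcdhga9, Pcdhga10 and Pcdhgb1 the differences were 0.48 to 0.97 in replicate A, 1.61 to 1.74 in B and 0.32 to 0.55 in C. The adjusted p was 0.109, 0.081, 0.139 and 0.0791 for these 4 genes in that order, and without replicate A that of Pcdhga9 alone among them passed (1.13, adjusted p = 0.0359). The same genes differed in p53-/- cells by -0.10 to 0.10 in replicate A, -0.44 to -0.34 in B and -0.70 to -0.45 in C. Pcdhga9 measured 11.58, 11.13 and 11.14 in p53-/- knockouts, against 11.67, 11.49 and 11.70 in p53-/- controls.

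These genes may not be separate measurements. The numbers in the names of the 3 probes of Pcdhga7, Pcdhga9 and Pcdhga10 step by 355 from the first to the second in each gene and by 798, 800 and 803 from the first to the third. Probes of the same place had mean levels of 8.81 to 8.94, 10.11 to 10.22 and 10.78 to 11.39, and their differences over the 6 replicates were never more than 0.52 apart. Gamma transcripts share their constant exons, so that probes in these exons would read all of them at once. For Pcdhgb1 the other probes were at background in every average (-0.22 and -0.04 in Ha-RasV12 cells).

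**Figure D4:**
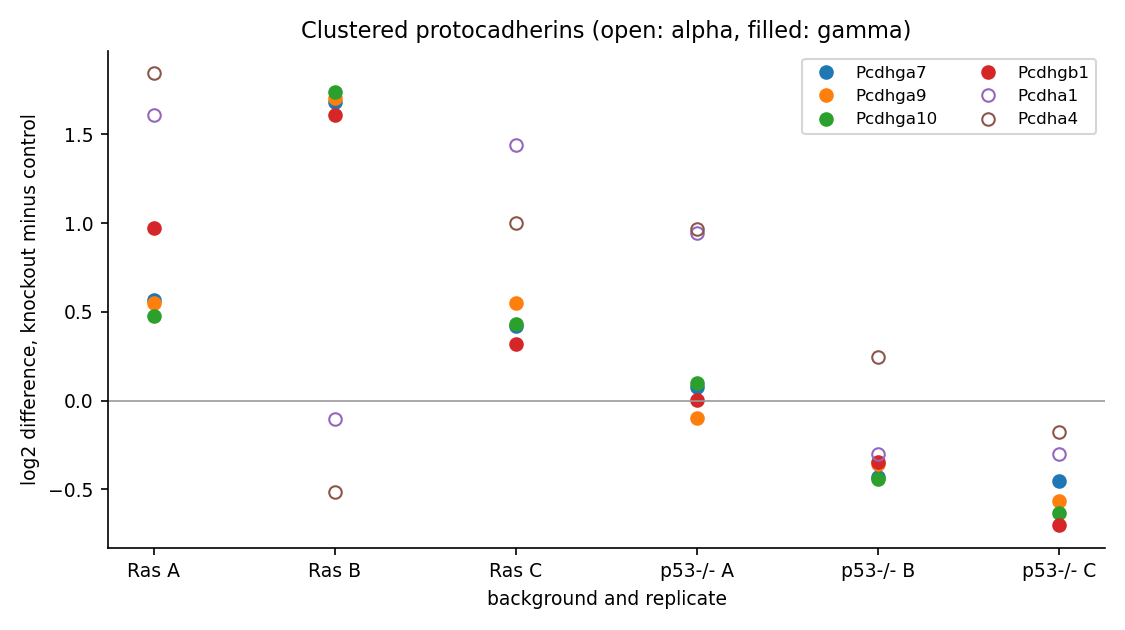
Log2 difference, E4F1 knockout minus control (y axis), of 4 gamma (filled) and 2 alpha (open) protocadherins in Ha-RasV12 and p53-/- replicates A, B and C (x axis). The gamma points lie together within each replicate, highest in Ha-RasV12 replicate B (1.61 to 1.74) and below 0 in p53-/- replicates B and C, while the alpha points are high in Ha-RasV12 replicates A and C and in p53-/- replicate A.

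Pcdha1 and Pcdha4 followed another order of replicates. Pcdha1 measured 8.11, 6.28 and 7.13 in Ha-RasV12 knockouts, against 6.51, 6.38 and 5.69 in Ha-RasV12 controls, none of which was above background. Knockout replicate B was not above background either, so that no fold over all replicates is given (adjusted p = 0.221). Pcdha4 differed by 1.84, -0.51 and 1.00 (mean 0.78, adjusted p = 0.41), and its mean was 0.24 without replicate A. Without replicate B, the one replicate below 0 for both, both passed, Pcdha1 at least 2.13-fold higher in Ha-RasV12 knockouts (adjusted p = 0.0305) and Pcdha4 by 1.42 (adjusted p = 0.039). Among the p53-/- replicates A alone lay well above 0, at 0.94 for Pcdha1 and 0.97 for Pcdha4. The alpha probes also share spacing (727 and 732 in Pcdha1, 726 and 732 in Pcdha4), and alpha transcripts share a constant end as well.

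All 6 clustered protocadherins and Cdh2 lie on chromosome 18. Among 80 other named genes of that chromosome above background in all averages, 85% were higher in Ha-RasV12 knockouts, against 59.9% of 2638 named genes on other chromosomes. Their median difference was 0.43, 0.83 and 0.45 in replicates A, B and C, against 0.21, 0.38 and 0.22 over all 2718 named genes. Replicate B was highest in both, as it was on chromosome 8 (0.46, 0.58 and 0.34) and chromosome 9 (0.34, 0.64 and 0.36), where 79.7% of 172 genes were higher. Named genes had passed a threshold in one of the tables, and the part of the chromosome in the protocadherin values was not tested.

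The non-clustered protocadherins are single genes. Pcdh18 measured 10.49, 10.86 and 9.88 in Ha-RasV12 knockouts, against 10.37, 9.40 and 8.99 in Ha-RasV12 controls, with differences of 0.13, 1.46 and 0.89 (mean 0.83, SE 0.23, adjusted p = 0.112). Without replicate A the mean was 1.18 and passed (adjusted p = 0.00731). Pcdh18 in p53-/- cells differed by -0.03, -0.29 and -0.19. Pcdh7 went the other way, at 8.34, 9.36 and 9.23 in Ha-RasV12 knockouts, against 10.30, 9.82 and 9.68 in Ha-RasV12 controls. Every knockout lay below every control (differences -1.96, -0.46 and -0.45, mean -0.96, SE 0.28, adjusted p = 0.142), and the mean was -0.45 without replicate A. The p53-/- differences of Pcdh7 were -0.36, -0.18 and 0.32. Pcdh9 differed by 0.11, 0.13 and 0.19 in Ha-RasV12 cells at its brightest probe (adjusted p = 0.785). The brightest named probe of Pcdh10 was above background in 0 of 3 Ha-RasV12 knockouts and 2 of 3 Ha-RasV12 controls, so that no fold is given (adjusted p = 0.273).

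The one claudin, Cldn9, a tight junction gene, was 7.06, 6.19 and 6.60 in Ha-RasV12 knockouts, against 7.30, 7.41 and 7.33 in Ha-RasV12 controls. Every knockout lay below every control (mean -0.73, SE 0.21, adjusted p = 0.122), and without replicate A the mean was -0.98 and passed (adjusted p = 0.0274). Cldn9 was not above background in any p53-/- average, and this probe was above it in 2 of 3 Ha-RasV12 knockouts. Its other probes gave -0.32 and -0.67 in Ha-RasV12 cells, with replicate A above 0 in both (0.37 and 0.24).

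The test of whether the effect of E4F1 loss differs between the backgrounds was passed by 0 of 21 members (0.555% of all transcripts), and 10 had an unadjusted p below 0.05 (9.79%). In 3 members all 3 p53-/- differences were below 0 and all 3 Ha-RasV12 differences above 0. For Itga11 these signs have no weight in Ha-RasV12 replicates A and C, where knockout and control were both at background (adjusted p = 0.261). The others were Pcdh18 (difference between backgrounds 1.00, SE 0.32, adjusted p = 0.351) and Pcdhga9 (1.27, SE 0.33, adjusted p = 0.214). No member showed the opposite pattern. The share of all transcripts with either pattern is not given here. Members were chosen by the Ha-RasV12 comparison, so these counts do not describe the families. Without Ha-RasV12 replicate A the value of Pcdh18 was 1.35 and passed (adjusted p = 0.0262), and without replicate B that of Cdh13 was -4.95 and passed (adjusted p = 0.0253).

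Between the control groups, both E4F1 +/-, the Ha-RasV12 controls differed from the p53-/- controls in 4 of 21 members (4.05% of all transcripts). Arrays held 1 background each, so that array and background cannot be told apart here, and these controls are also part of the comparison that chose the members. Itga6 and Pcdh7 were higher with the oncogene and Itga11 and Pcdh18 lower. Itga11 measured 6.46, 5.75 and 5.87 in Ha-RasV12 controls, against 9.76, 9.43 and 9.52 in p53-/- controls, at least 8.20-fold lower (adjusted p = 4.16e-05), and all 3 of its probes passed. Itga6 measured 13.71, 10.74 and 10.78 in Ha-RasV12 controls, against 9.25, 9.19 and 9.23 in p53-/- controls (2.52, SE 0.60, adjusted p = 0.0331). The groups do not overlap, and without Ha-RasV12 control A the difference was 1.54 (adjusted p = 0.00885). All 15 Itga6 probes were higher, 4 of them past the threshold. Leaving out any one p53-/- control ended the call of Itga6 (2.51 to 2.54, adjusted p = 0.0934 to 0.114), as did the mean over its probes (1.59, adjusted p = 0.0634).

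Pcdh7 measured 10.30, 9.82 and 9.68 in Ha-RasV12 controls, against 8.97, 8.46 and 8.28 in p53-/- controls (1.36, SE 0.29, adjusted p = 0.0163). Pcdh18 measured 10.37, 9.40 and 8.99 in Ha-RasV12 controls, against 10.85, 11.21 and 11.36 in p53-/- controls (-1.56, SE 0.33, adjusted p = 0.0171). All 3 probes of each passed, and the groups do not overlap in either gene. Without p53-/- control B or C Itga11 alone of the 4 passed, and Pcdh18 did not pass without Ha-RasV12 control B or C either (-1.46 and -1.26, adjusted p = 0.0741 and 0.0803). Itgb1 was not past the threshold (-0.60, SE 0.33, adjusted p = 0.404), but without Ha-RasV12 control A it was -1.05 and passed (adjusted p = 0.0244). The difference for Cdh13 was 3.26 (SE 0.99, adjusted p = 0.0977), with the 3 Ha-RasV12 controls above the 3 p53-/- controls, and 1.91 without Ha-RasV12 control A (adjusted p = 0.145). The median over the 21 members was -0.33, against -0.12 for all transcripts.

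**Figure D5:**
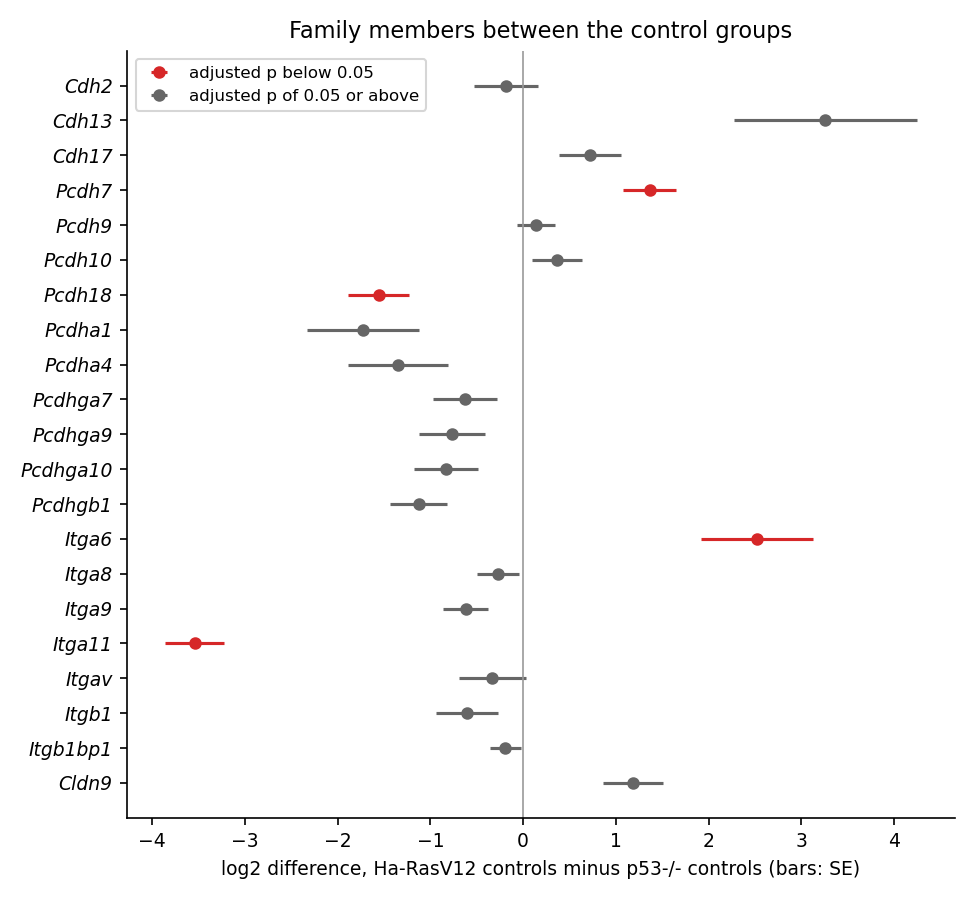
Log2 difference, Ha-RasV12 controls minus p53-/- controls (x axis), for the 21 members (rows), with bars for the standard error (3 replicates a group); red marks adjusted p below 0.05. Itga6 and Pcdh7 lie to the right (2.52 and 1.36) and Pcdh18 and Itga11 to the left; Pcdh18 lies at -1.56, and the point of Itga11 is the measured difference from Ha-RasV12 controls at background, for which the text gives the bound of 8.20-fold.

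Of 29 listed genes for matrix proteins and other ligands of integrins, 7 were named in the tables, and after E4F1 loss in Ha-RasV12 cells 4 rose and 2 fell, while 0 passed in p53-/- cells. Their median difference in Ha-RasV12 cells was 1.01, against -0.004 for all transcripts and 0.44 for 2718 named genes above background in all averages. Being named required a listing in one of the tables, and 2.89% of all transcripts passed in Ha-RasV12 cells. Fn1, fibronectin, rose by 1.66 (SE 0.21, adjusted p = 0.00421; replicates 1.59, 2.23 and 1.16), and Tnc, tenascin-C, by 2.81 (SE 0.50, adjusted p = 0.0225; replicates 0.75, 4.17 and 3.51). Thbs1, thrombospondin 1, rose by 1.74 and Col4a1, a basement membrane collagen, by 1.01 (adjusted p = 0.0187 and 0.0258). Col3a1, a fibrillar collagen, fell by 1.99 (adjusted p = 0.00605). Without replicate A 4 ligands rose and 1 fell, with Tnc at 3.84 (adjusted p = 7.25e-06). Between the controls 4 of the 7 were lower in Ha-RasV12 cells and 0 higher, among them Thbs1 (-4.20) and Col1a1 (-3.27), with a median of -1.35 against -0.12 for all transcripts.

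Few partners inside the cell passed. Over all transcripts 2.89% passed in Ha-RasV12 knockouts and 4.05% between the controls. Of 26 listed integrin adhesome genes 5 were named and 1 rose in Ha-RasV12 knockouts, Tln1, the talin that links integrins to actin (0.90, SE 0.16, adjusted p = 0.0242), and 2 were lower in Ha-RasV12 controls than in p53-/- controls, Tln1 (-0.93) and the actinin gene Actn1 (-1.45). Of 31 catenin and junction plaque genes 11 were named and 1 rose, Pvrl2, which encodes nectin-2 (1.19, SE 0.20, adjusted p = 0.0172). Between the controls Pvrl2 was lower in Ha-RasV12 cells (-1.93) and F11r, a junctional adhesion molecule, higher (1.40). Ctnna1, alpha-catenin, differed by 0.64 in Ha-RasV12 cells (adjusted p = 0.372) and by 1.12 without replicate A, which passed (adjusted p = 0.0226). Without replicate A, 2 adhesome genes rose and 3 plaque genes rose and 1 fell in Ha-RasV12 knockouts. Of 10 cadherin regulators 2 were named, Snai1 and Zeb2, and 0 passed in any comparison. None of these 3 lists had a member past the threshold in p53-/- cells (0 of 18 named genes). Their medians in Ha-RasV12 cells were 0.73 for the adhesome, 0.23 for the junction plaque and 0.56 for the regulators.

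Array probes without a name in the tables could in part be named through RefSeq accessions, which matched 912 transcripts. Among them were 5 further family genes, Cdh18, Pcdh19, Cldn20, Cldn22 and Cldn24, which lie outside the rule. None came near the threshold (smallest adjusted p 0.354 in Ha-RasV12 cells and 0.166 between controls). Further transcripts of the member Pcdh10 were matched as well. The brightest of these had a mean level of 6.54, against 6.39 for the probe used above. It was above background in 1 of 3 Ha-RasV12 knockouts and 1 of 3 Ha-RasV12 controls (limma adjusted p = 0.488). Other unlisted family genes of the array carry no name here.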

How the data were processed

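Members, gene lists and tests were chosen with earlier results of these data known. The authors deposited normalized intensities per sample on a linear scale and 6 tables of log2 fold changes, moderated t and SAM scores, p-values and q-values; per the submitters' processing notes limma was used, its version not given in the sources used here. No label or file header states the background correction or the normalization. Mean log2 differences computed here equalled the deposited log2 fold changes within 4.8e-06, which sets scale and direction. 1 deposited probe is not in the value table, and 0 columns of other samples were used.

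The log2 ratio of knockout to control was taken within each array and averaged over both dye orientations of a replicate (6 replicate differences), then fitted with limma 3.58.1 in R 4.3.3 (3 per background, shared spread), with Benjamini-Hochberg adjustment over 132488 probes and a threshold of 0.05. Controls were compared in a fit of group means on 12 averages. The ratio keeps knockout and control of a replicate as a block because they share arrays. Deviations of same-lettered samples correlated at 0.69, 0.63 and 0.68 in p53-/- cells and 0.26, -0.27 and 0.49 in Ha-RasV12 cells. Both dye orientations of a ratio correlated at 0.78, 0.89 and 0.65 in Ha-RasV12 and 0.17, 0.07 and -0.04 in p53-/- replicates A, B and C.

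A gene is represented by the probe with the highest mean signal among the transcripts that the tables name for it. Symbols and chromosomes follow the tables' Entrez IDs through RefSeq GRCm38.p6, which matched 21 of 21 members. Named in full by rule were E4f1, members past a threshold (up to 6 per direction, up to 4 per family between controls) and members in both deposited limma tables; the rule lets the text give every member, and Cdh18, Pcdh19, Cldn20, Cldn22, Cldn24 and examples from lists were chosen after their values were seen. Tested on simulated data (132488 probes) with changes placed in the Ha-RasV12 differences, the fit recovered 14% of log2 changes of 1 and 70% of changes of 2. The simulation gave both backgrounds the same spread per probe and changed only probes brighter than the median. It therefore does not copy the wider spread of the real Ha-RasV12 differences. Alternatives were no block, each background alone, arrays with a dye term, quantile normalization, median centring, brighter probes, a variance trend, probe means, any probe, a 1.5-fold minimum, the deposited lists and leaving out replicates; counting arrays as independent and list counts without Ha-RasV12 replicate A were added after seeing the data. The values of 1 gene of the ligand list are not reported here. Figures used Python 3.11.15 with matplotlib 3.10.9.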

Additional observations from a re-analysis of the deposited data

Results flagged for a closer look

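Among the genes described, 3 passed the test for a different effect of E4F1 loss in the 2 backgrounds, and none of them is a family member. Over all transcripts 0.555% passed, and being named required a listing in one of the tables. Fn1 had a Ha-RasV12 effect minus p53-/- effect of 2.13 (SE 0.30, limma adjusted p = 0.0188), with replicate differences of 1.59, 2.23 and 1.16 in Ha-RasV12 cells and -0.78, -0.27 and -0.37 in p53-/- cells. For Col3a1 the value was -2.34 (SE 0.39, adjusted p = 0.0421), with -2.96, -1.71 and -1.31 in Ha-RasV12 cells and 0.19, 0.26 and 0.57 in p53-/- cells. Flt1, a VEGF receptor gene on the endothelial list, had 1.93 (SE 0.26, adjusted p = 0.0146), with 1.58, 0.93 and 0.73 in Ha-RasV12 cells and -0.80, -0.81 and -0.95 in p53-/- cells. In each of these genes all 3 replicates of one background lie on the other side of 0 from all 3 of the other. Without Ha-RasV12 replicate A these 3 still passed. Tnc, Thbs1, Dcn, Pvrl2, Flna, Lum and Tln1 then passed as well (limma adjusted p from 6.86e-05 to 0.0485), as did the member Pcdh18. Groups of 3 replicates are too small for the check of single outlying samples.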

How the results depend on the processing

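In Ha-RasV12 cells 0 members passed with the replicate block and 0 with no replicate block, which also gave 0 in p53-/- cells and 0 for the difference between backgrounds; over all probes the calls were 3061 with the block and 1038 without in Ha-RasV12 cells, 28 and 19 in p53-/- cells, and 568 and 137 for the difference. Array ratios with replicate as a random effect and a dye term called 11 members in Ha-RasV12 cells (7 higher, 4 lower) and 3 for the difference between backgrounds (Itga11, Pcdhga9 and Pcdhgb1). Shares of all transcripts are not given here for this fit or for those that leave out replicates. Such counts therefore say nothing particular about members that were listed for Ha-RasV12 cells. Counting array ratios as independent, which makes p-values too small, called 14 and 6. Over all probes it called 10984 in Ha-RasV12 cells and 3862 for the difference. The mean over probes called 1 (Itga9, whose probes were at background in the Ha-RasV12 controls) and any probe 2. The authors' deposited limma table lists 7 members for Ha-RasV12 and 3 for p53-/- cells, the SAM table named for 5% lists 21 and 3, and that named for 1% lists 6 and 3. Leaving out 1 replicate gave 0 to 5 called members in Ha-RasV12 cells, 0 to 1 for the difference between backgrounds, 0 in p53-/- cells and 1 to 5 between the controls. Without Ha-RasV12 replicate A these were Cldn9, Itga6, Itgb1, Pcdh18 and Pcdhga9, without B Cdh13, Pcdha1 and Pcdha4. Between the controls Itga6 did not pass without p53-/- control A, B or C, and Pcdh18 not without either p53-/- control B or C or Ha-RasV12 control B or C. The cause of these shifts was not tested. Of 1008 values of single members under alternatives, 935 kept direction and side of the threshold or moved by less than the replicate spread, 51 newly passed, 10 no longer passed and 12 moved by more; 0 called values changed sign. Signal limits Cdh17, Cldn9, Itga8, Itga9, Itga11, Itgav, Pcdh10, Pcdha1 and Pcdha4, whose probes were not above background in some averages.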
